A study of Homo sapiens with 8 samples.

Results

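The 6 samples of SDHB-null cells were compared with the 2 samples of their parental line, to find which transcripts were shifted after loss of SDHB and stayed shifted when SDHA was depleted as well. All 8 samples came from MDA-MB-231 (MDA231), an established human breast cancer line of mesenchymal, basal type. The parental group held unmodified cells ("Parental, not modified", n = 2). "SDHB knockout" cells (n = 3, SDHB-KO in the text) were made by transfecting MDA231 with a TALEN, a designed nuclease, against the first exon of SDHB, followed by selection in hygromycin. "SDHB knockout SDHA knockdown" cells (n = 3, SDHB-KO SDHA-low) were the same knockout cells carrying in addition a short hairpin RNA plasmid against SDHA, and were treated with puromycin after transfection. All cells were harvested below full confluence in complete medium with no drug treatment apart from these steps. The sources do not say whether the SDHB-KO subline is 1 clone, and no empty-vector library is among the samples, so that a trait of the subline, the selection and the loss of SDHB cannot be told apart. Between the SDHB-null groups, the plasmid, the puromycin and the loss of SDHA cannot be told apart either. A gene entered the tests when its mean normalised count over the 8 samples was above 5, which held for 7550 of 58051 genes. Genes called in the contrast of the SDHB-null mean against parental, with a log2 fold change of the same sign in both SDHB-null groups, are called sustained below, and there were 292 of them.

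Complex II, or succinate dehydrogenase, oxidises succinate to fumarate in the tricarboxylic acid (TCA) cycle and passes the electrons to ubiquinone. SDHA carries the flavin and the succinate site, SDHB carries the iron-sulfur clusters, and SDHC and SDHD anchor the enzyme in the inner mitochondrial membrane. Without SDHB the assembled enzyme cannot form, while SDHA can persist with assembly factors as a smaller form. Loss of complex II leads to a build-up of succinate, which can inhibit dioxygenases that use 2-oxoglutarate, among them the prolyl hydroxylases that mark the hypoxia-inducible factor (HIF) for destruction.

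RNA was sequenced from the 3' ends of polyadenylated transcripts, with 773042 to 1427141 reads counted on genes per sample. Levels are given in CPM, counts scaled by TMM to a library of 1000000 reads on genes, and 3 counts of a gene corresponded to at most 3.88 CPM. Replicates varied by 21.5% (common biological coefficient of variation), and the 3 groups left 5 degrees of freedom for the spread. The line markers VIM, CD44, AXL and LGALS1 were present in every group, and none of the 9 tested members of a 10-gene mesenchymal list was called. ESR1, PGR, PTPRC and CD3E were at 0 counts in every sample, whereas the keratins KRT8, KRT18 and KRT19 of the luminal list were well detected. That the 3 samples of a group came from separate cultures is given only as a biological replicate number, so that p-values measure the spread between these samples. In such bulk samples a change in the share of cells and in the RNA per cell cannot be told apart.

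The genes of complex II themselves gave a partial check of the labels. SDHB was counted too rarely to be tested, with 4.63 and 3.98 CPM in parental and 0 to 3.34 CPM in SDHB-null samples, at or near the level of 3 counts in every library, and so says nothing of the edit. SDHA stood at 74.04 and 91.6 CPM in parental, 148, 135 and 151 in SDHB-KO and 8.45, 12.7 and 17.8 in SDHB-KO SDHA-low. The knockdown was thus visible in all 3 SDHB-KO SDHA-low samples, which lay below both parental and all SDHB-KO samples (difference between the SDHB-null groups -3.46, adjusted p = 1.16e-07). The assembly factor SDHAF2, which helps attach flavin to SDHA, was measured at 42.8 and 49.1 CPM in parental and 44.7 to 86.3 in SDHB-null cells, and SDHC at 41.6 and 26.6 CPM in parental and 26.98 to 62.8 in SDHB-null cells, with overlapping groups in both cases and adjusted p = 0.406 and 0.761. SDHAF1 and SDHAF4, with adjusted p = 0.485 and 0.651, did not pass the test either.

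Of the 7550 genes tested, 295 (3.91%) differed between SDHB-null and parental cells at an adjusted p below 0.1 (edgeR's quasi-likelihood test, Benjamini-Hochberg adjustment). Log2 fold changes of this contrast are given ± SE, with 6 SDHB-null against 2 parental samples throughout. Of these, 132 were higher (1.75% of genes tested) and 163 lower (2.16%). The sign was the same in both SDHB-null groups for 292, of which 132 were higher and 160 lower, a count in which both groups were set against the same 2 parental samples. The median size of the log2 fold change was 1.05 for the higher and 1.34 for the lower genes, and the smallest change called was 0.56. In 259 of the 292 genes all 6 SDHB-null samples lay on the same side of both parental samples (15.8% over all genes tested), a count that the choice of the 292 on these same samples favours. The counts depended strongly on single libraries. Without parental replicate 1, only the histone gene H2AC25 was called (496 genes had an unadjusted p below 0.05), and without parental replicate 2 the count was 54, in both cases with the spread taken from the SDHB-null samples. It was 138 without SDHB-KO replicate 1, 167 without SDHB-KO replicate 3, 147 without SDHB-KO SDHA-low replicate 1, and 472 without SDHB-KO SDHA-low replicate 2. All called genes of the selection given with the methods depended on parental replicate 1 for their call.

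**Figure D1:**
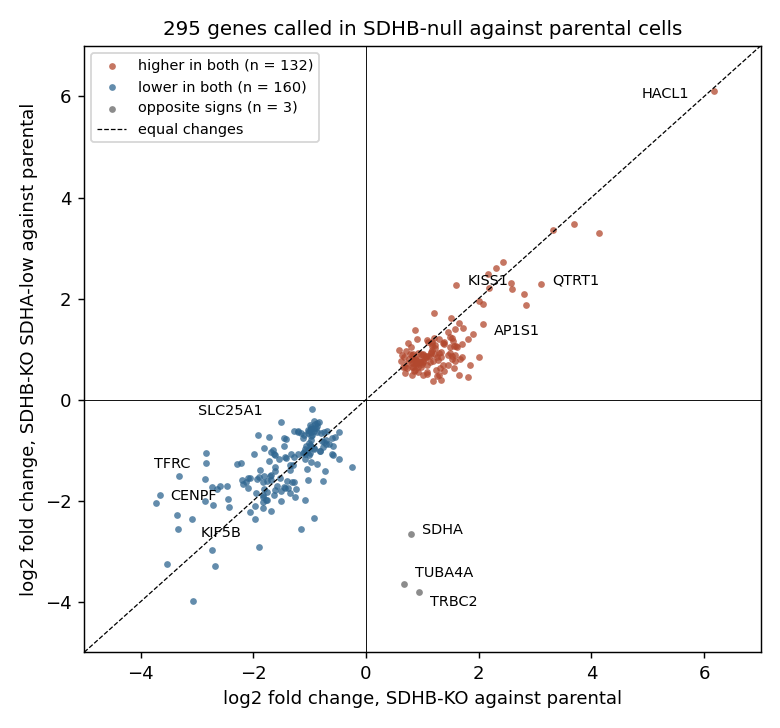
Log2 fold changes of the 295 called genes against parental cells, in SDHB-KO cells on the x axis and SDHB-KO SDHA-low cells on the y axis, each point a gene and the dashed line equal changes. The 132 higher and 160 lower genes lie in the quadrants of equal sign and SDHA, TUBA4A and TRBC2 outside them, and both axes share the same 2 parental samples.

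Among sustained genes with at least 20 CPM on average, shared evenly between the SDHB-null groups and with no overlap between samples, the most reduced was TFRC, the transferrin receptor that brings iron into cells. Its levels were 127 and 55.8 CPM in parental, 12.3, 15.6 and 9.71 in SDHB-KO and 43.4, 20.1 and 31.2 in SDHB-KO SDHA-low. Every SDHB-null sample was below both parental samples, although the parental pair itself differed more than 2-fold (log2 fold change -2.22 ± 0.33, adjusted p = 0.00176). KIF5B, the heavy chain of kinesin-1, was at 79.8 and 30.5 CPM in parental, 12.3, 16.7 and 12.9 in SDHB-KO and 4.83, 10.4 and 16.7 in SDHB-KO SDHA-low (log2 fold change -2.17 ± 0.39, adjusted p = 0.00993). PIEZO1, a mechanically gated cation channel, was at 78.7 and 88.9 CPM in parental, 4.10, 22.2 and 30.2 in SDHB-KO and 25.3, 17.2 and 33.4 in SDHB-KO SDHA-low (log2 fold change -1.92 ± 0.36, adjusted p = 0.0102). For both genes the SDHB-null samples lay well under the lower parental value. HLA-B, a class I antigen-presenting molecule, fell from 89.1 and 49.1 CPM in parental cells to 11.9 to 32.6 CPM (log2 fold change -1.81 ± 0.32, adjusted p = 0.00924). LRFN4, a leucine-rich adhesion protein, had 229 and 260.2 CPM in parental, 84.8, 61.1 and 52.9 in SDHB-KO and 105, 46.3 and 107 in SDHB-KO SDHA-low (log2 fold change -1.71 ± 0.25, adjusted p = 0.00176). ATG4D, a protease of the autophagy conjugation system, had 231 and 248 CPM in parental, 56.1, 80.04 and 80.9 in SDHB-KO and 66.4, 167 and 69.1 in SDHB-KO SDHA-low (log2 fold change -1.47 ± 0.27, adjusted p = 0.00993). In LRFN4 and ATG4D the parental pair was close together, and 1 SDHB-KO SDHA-low sample of ATG4D sat above the other 5 SDHB-null samples without reaching the parental range.

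The remaining 6 of the 12 most reduced genes had log2 fold changes from -1.75 to -1.51. They were the RNA-binding proteins HNRNPH3 (-1.75) and HNRNPA3 (-1.59), the CDC42 effector CDC42EP3 (-1.72), the nuclear export receptor CSE1L (-1.66), the chaperone HSPH1 (-1.60) and the cohesin regulator PDS5A (-1.51). Across the 12, adjusted p ran from 0.00176 to 0.0539, and 10 were also called in each SDHB-null group on its own. In 8 of the 12 parental replicate 1 was more than 1.5 times parental replicate 2, against 16.7% of all genes tested, and the reverse held for none. All 12 were called again after a correction for GC content, with a median log2 fold change of -1.66 against -1.72 before it.

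On the other side, QTRT1, the catalytic subunit of the enzyme that inserts queuine into transfer RNA, showed the largest increase under the same rule. It was measured at 4.63 and 3.98 CPM in parental, 58.8, 24.5 and 33.5 in SDHB-KO and 22.9, 28.4 and 12.3 in SDHB-KO SDHA-low (log2 fold change 2.70 ± 0.57, adjusted p = 0.0208). Every SDHB-null sample was above both parental samples, which held 4 and 3 reads. KISS1, which encodes the secreted peptide kisspeptin, was at 54.4 and 58.4 CPM in parental, 233, 95.6 and 188 in SDHB-KO and 193, 507 and 109 in SDHB-KO SDHA-low (log2 fold change 1.94 ± 0.45, adjusted p = 0.0297). AP1S1, a subunit of the AP-1 clathrin adaptor, was at 41.6 and 41.2 CPM in parental, 239, 104 and 186 in SDHB-KO and 106, 178 and 64.6 in SDHB-KO SDHA-low (log2 fold change 1.79 ± 0.36, adjusted p = 0.0157). For KISS1 and AP1S1 the parental pair was almost equal while the SDHB-null samples spread over a wide range. ABT1, an activator of basal transcription, was at 41.6 and 54.4 CPM in parental, 186, 118 and 125 in SDHB-KO and 159, 124 and 94.7 in SDHB-KO SDHA-low (log2 fold change 1.48 ± 0.28, adjusted p = 0.0109). CRACR2B, a regulator of store-operated calcium channels, was at 15.04 and 11.9 CPM in parental, 46.5, 30.02 and 39.9 in SDHB-KO and 42.2, 51.5 and 30.1 in SDHB-KO SDHA-low (log2 fold change 1.56 ± 0.38, adjusted p = 0.0386). ERF, a repressor of the ETS family, was at 31.2 and 29.2 CPM in parental, 138, 71.1 and 89.6 in SDHB-KO and 65.2, 81.3 and 46.8 in SDHB-KO SDHA-low (log2 fold change 1.40 ± 0.32, adjusted p = 0.0285). None of these 3 genes had an SDHB-null sample inside the parental range.

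The other 6 of the 12 most increased genes had log2 fold changes from 1.40 to 1.60. They were ASPHD1 (1.60), the RNA-binding protein PRRC2A (1.58), ISOC2 (1.57), the transcriptional repressor HES4 (1.51), the mitochondrial acyl-CoA thioesterase ACOT2 (1.46) and the Toll-like receptor adaptor TICAM1 (1.40). Adjusted p ran from 0.0109 to 0.0944 across the 12. After the correction for GC content 11 of the 12 were called again, with a median log2 fold change of 1.54 against 1.56 before it. Against parental, 11 were called in SDHB-KO and 4 in SDHB-KO SDHA-low, namely KISS1, AP1S1, CRACR2B and ABT1. Between the SDHB-null groups none of the 12 was called, the lowest adjusted p being 0.378. The rule of even sharing favours this outcome, which does not show that the groups were equal. Exons of a gene on the other strand overlap the last 300 bases of PIEZO1, LRFN4, ATG4D and ASPHD1. The same applies to PRMT1, C19orf33, ATP5F1E, GAPDH, ASPH, CDK4 and MRPL23, named further below. PRKAG1 and C19orf33 share their ends with a gene on the same strand. Whether the counting used strand is not given in the sources used here, so that reads of all these genes and of their partner genes cannot be told apart. Counts of HLA-B and HNRNPA3 are uncertain where related genes or processed pseudogenes share sequence.

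**Figure D2:**
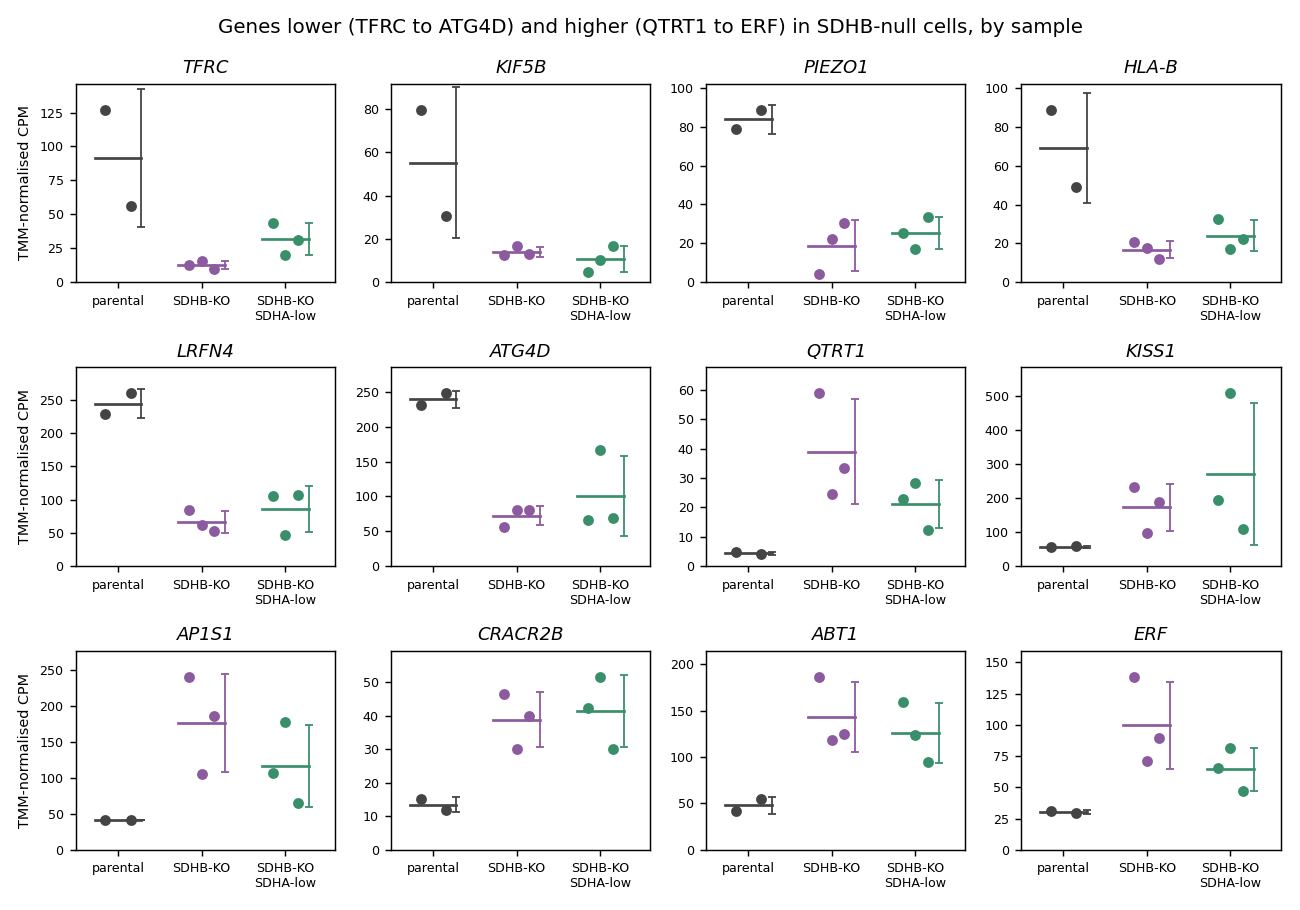
TMM-normalised CPM on the y axis for each sample in the 3 groups on the x axis, with points for samples, horizontal lines for group means and bars for SD (n = 2, 3 and 3). The 6 genes from TFRC to ATG4D have all SDHB-null samples below both parental samples and the 6 genes from QTRT1 to ERF have all of them above, with a wide parental spread in TFRC, KIF5B and HLA-B.

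The promoters of the most reduced gene, of the most increased gene and of an increased gene with a tight parental pair are shown because HIF acts through a short core, ACGTG or GCGTG, which was searched for in them. The second form was added after the values were seen. Each sequence is the 250 bases before the RefSeq transcription start in GRCh38.p14, 5' to 3' on the gene's strand, with the core on either strand in capitals.
TFRC, chr3:196082091-196082340, minus strand: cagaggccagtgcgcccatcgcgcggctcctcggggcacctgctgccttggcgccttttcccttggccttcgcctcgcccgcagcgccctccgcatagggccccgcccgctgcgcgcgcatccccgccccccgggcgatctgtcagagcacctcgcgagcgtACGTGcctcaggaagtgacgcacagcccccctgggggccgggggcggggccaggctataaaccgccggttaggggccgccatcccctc
QTRT1, chr19:10701189-10701438, plus strand: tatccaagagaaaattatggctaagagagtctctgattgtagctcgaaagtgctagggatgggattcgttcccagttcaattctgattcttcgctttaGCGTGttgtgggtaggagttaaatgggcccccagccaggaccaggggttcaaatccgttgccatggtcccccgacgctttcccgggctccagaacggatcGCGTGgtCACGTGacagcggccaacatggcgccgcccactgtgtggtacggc
AP1S1, chr7:101154226-101154475, plus strand: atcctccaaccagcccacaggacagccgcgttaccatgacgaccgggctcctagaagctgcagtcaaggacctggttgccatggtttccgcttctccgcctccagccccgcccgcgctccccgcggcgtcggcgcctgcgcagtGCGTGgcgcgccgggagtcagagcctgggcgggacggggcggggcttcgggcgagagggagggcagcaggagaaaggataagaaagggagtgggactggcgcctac
TFRC holds ACGTG once and AP1S1 holds GCGTG once. QTRT1 holds GCGTG at 2 places and ACGTG on both strands inside an E-box (CACGTG). The promoters of KISS1, TKT and HMGCS1, looked at in the same way, held neither form, while those of LRFN4 and ABT1 held the core. KISS1 and TKT also rose with a tight parental pair. The form ACGTG was found in 22.6% of 106 matched promoters of sustained higher genes, 24.8% of 129 of sustained lower genes, 24.5% of 6081 promoters of genes tested and 18.7% of all 27305 promoters. The form GCGTG was found in 38.7%, 50.4%, 48.5% and 31.9% of the same sets, and either form in 53.8%, 61.2%, 60.2% and 43.1%. The E-box, which contains ACGTG, was found in 9.43%, 13.2%, 9.55% and 6.49%. For the AP-1 site (TGANTCA) the shares were 4.72%, 4.65%, 3.73% and 6.60%, and for the CCAAT box 38.7%, 43.4%, 36.2% and 33.0%. A match of letters describes the window only.

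The 2 SDHB-null groups carried the sustained changes to unequal extents. Taking each group against parental, 418 genes (5.54% of those tested) were called for SDHB-KO and 69 (0.914%) for SDHB-KO SDHA-low. Among the 292 sustained genes, 230 were called against parental in SDHB-KO, 56 in SDHB-KO SDHA-low, 41 in both of these, and 47 only with the 6 samples in 1 contrast. The change was larger in SDHB-KO for 207 and larger in SDHB-KO SDHA-low for 85. The median ratio of the smaller to the larger change was 0.77, with quartiles of 0.63 and 0.88, and in 259 genes the smaller change was at least 0.5 of the larger. These ratios rest on the same parental samples. The direct comparison of SDHB-KO SDHA-low with SDHB-KO, which contrasts no parental sample, called 13 of the 292 (4.45%), against 114 of all genes tested (1.51%). The other 279 did not pass this test, which does not show that the groups were equal.

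In those 13 genes the level differed between the SDHB-null groups although both had a change of the same sign against parental cells. Against parental, 12 of the 13 were called in SDHB-KO, 1 (PYGB) in SDHB-KO SDHA-low and none in both. A sustained change in SDHB-KO SDHA-low cells is thus given by its sign only for the other 12. PRMT1, the main protein arginine methyltransferase of type I, was at 724 and 766 CPM in parental, 3209, 1649.8 and 2119 in SDHB-KO and 1298, 1077 and 774 in SDHB-KO SDHA-low, and its difference between the SDHB-null groups was -1.15 (adjusted p = 0.0142). SLC25A1, the mitochondrial citrate carrier, was at 442 and 496 CPM in parental, 120.4, 210.1 and 161 in SDHB-KO and 296, 347 and 394 in SDHB-KO SDHA-low (difference 1.07, adjusted p = 0.0142). In both genes the SDHB-KO SDHA-low samples lay between the SDHB-KO and the parental samples. The group means had the same order for TAGLN2, RPS10, STYXL1, DUSP4, YBX3, PRKAG1, VAMP8 and C19orf33 among the higher genes and for COLGALT1 among the lower, with COLGALT1 at 1100.2 and 1191 CPM in parental, 475, 489 and 449 in SDHB-KO and 727, 669 and 839 in SDHB-KO SDHA-low. In TAGLN2, DUSP4, YBX3 and C19orf33, 1 SDHB-KO SDHA-low sample lay inside the parental range. PYGB, brain-type glycogen phosphorylase, was the exception, at 231 and 249.6 CPM in parental, 224, 213 and 170.5 in SDHB-KO and 107, 73.9 and 106 in SDHB-KO SDHA-low, with changes against parental of -0.25 in SDHB-KO and -1.34 in SDHB-KO SDHA-low cells.

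The 3 called genes with opposite signs in the SDHB-null groups were SDHA, TUBA4A and TRBC2. TUBA4A, an alpha tubulin, was at 89.1 and 54.4 CPM in parental, 125, 113 and 108 in SDHB-KO and 4.83, 4.48 and 7.80 in SDHB-KO SDHA-low (difference between the SDHB-null groups -4.33, adjusted p = 9.70e-08). TRBC2, a T cell receptor constant segment, was at 42.8 and 41.2 CPM in parental, 77.99, 70.04 and 93.9 in SDHB-KO and 2.41, 5.22 and 0 in SDHB-KO SDHA-low (difference -4.75, adjusted p = 1.37e-06). Both followed the order of SDHA, with SDHB-KO above parental and the 3 SDHA-depleted samples far below either, and neither belongs to the sustained set. Reads of TUBA4A may be shared with other tubulin genes, and STK16 overlaps its end on the other strand.

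Mitochondrial genes outside complex II gave few calls, read here against 3.91% of all genes tested. In a list of complex I subunits and assembly factors, 2 of 42 tested genes (4.76%) were called, 1 in each direction, with a median log2 fold change of 0.06 against 0.00 for all genes tested. NDUFV1, which holds the NADH site, was at 385 and 417 CPM in parental, 301, 252 and 245 in SDHB-KO and 230.5, 185 and 224 in SDHB-KO SDHA-low (log2 fold change -0.75 ± 0.18, adjusted p = 0.038). NDUFA13, an accessory subunit, rose by 2.44 from 3.47 and 2.65 CPM, near the level of 3 counts, and shares its end with YJEFN3 on the same strand. Of 34 nuclear genes for complexes III to V, 2 were called (5.88%), both lower and both in the central stalk of ATP synthase. ATP5F1D was at 340.1 and 348 CPM in parental, 177, 173 and 159 in SDHB-KO and 145, 163 and 209 in SDHB-KO SDHA-low (log2 fold change -1.01 ± 0.19, adjusted p = 0.0102), and ATP5F1E had -0.80 (adjusted p = 0.0584). The ATP5F1D samples of both SDHB-null groups lay at about the same level, far from the parental pair. Of 68 mitochondrial ribosomal protein genes, 1 was called (1.47%), MRPL23, the called gene closest to the threshold (log2 fold change 1.34 ± 0.41, adjusted p = 0.0999). The nearest gene outside it was PTPRF, a receptor phosphatase, with adjusted p = 0.102 and a log2 fold change of -0.69.

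In central carbon metabolism, none of 15 TCA cycle genes was called (median -0.01, and 0.04 without parental replicate 1). MDH2 and IDH3B, the members with the most reads, had log2 fold changes of -0.40 and -0.52 with adjusted p = 0.291 and 0.154. Of 17 genes of anaplerosis, aspartate synthesis and citrate export, 1 was called (5.88%, against 3.91% of all genes tested). It was SLC25A1, which was lower (log2 fold change -0.98 ± 0.20, adjusted p = 0.0157), while the glutamine carrier SLC1A5 had -0.47 (adjusted p = 0.206). Of 22 glycolysis and lactate genes, 1 was called (4.55%), LDHB, the heart-type subunit of lactate dehydrogenase. It was at 256 and 167 CPM in parental and 65.2 to 177 in SDHB-null cells (log2 fold change -0.82 ± 0.23, adjusted p = 0.0677). An unnamed gene on the same strand overlaps the end of LDHB. GAPDH, by contrast, had a log2 fold change of 0.01 ± 0.22.

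Cholesterol and fatty acid synthesis was the list with the most called genes in 1 direction, 5 of 27 tested (18.5%), all lower, against 2.16% of all genes tested called lower, with a median of -0.14 over the list. Taking each group against parental, 4 members were called for SDHB-KO and 1 for SDHB-KO SDHA-low. Summed over the list, untested members included, levels were 4969 to 5315 CPM in parental, 3545 to 3682 in SDHB-KO and 4314 to 4757 in SDHB-KO SDHA-low. SCD, the fatty acid desaturase, was at 196 and 112 CPM in parental, 32.8, 78.9 and 53.96 in SDHB-KO and 85.7, 82.1 and 106 in SDHB-KO SDHA-low (log2 fold change -1.11 ± 0.26, adjusted p = 0.0325). FASN, fatty acid synthase, was at 1731 and 2026 CPM in parental, 948, 1028 and 1006 in SDHB-KO and 1079, 1736 and 1392 in SDHB-KO SDHA-low (log2 fold change -0.67 ± 0.18, adjusted p = 0.0642). Both were lowest in SDHB-KO, and 1 SDHB-KO SDHA-low sample of FASN reached the parental range. ACSL3, an acyl-CoA synthetase, had -1.95 at 42.8 and 14.6 CPM in parental, a pair far apart, and 3.34 to 13.3 CPM in SDHB-null cells. HMGCS1, the enzyme that makes HMG-CoA, had -1.76 at 18.5 and 10.6 CPM in parental and 2.74 to 5.56 CPM in SDHB-null cells, near the level of 3 counts. HMGCS1 was outside the rule for named genes and was added after its values were seen. The other 22 genes did not pass the test.

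No rise of HIF targets was called. Of 19 tested targets of the hypoxia response, 15 had a log2 fold change below 0, the median was -0.47, and TFRC was the 1 called (5.26%, against 3.91% of all genes tested). Without parental replicate 1 the median was -0.16 and 12 of the 19 were below 0. PGK1 was at 302 and 313 CPM in parental and 220.1 to 484 in SDHB-null cells with a log2 fold change of -0.00 (adjusted p = 0.994). CA9 had no read in any sample. Among 25 genes for dioxygenases that use 2-oxoglutarate, RIOX1, a ribosomal oxygenase, rose (log2 fold change 1.31 ± 0.28, adjusted p = 0.0214) from 27.8 and 30.5 CPM to 52.4 to 93.0 CPM, with no overlap. ASPH, which hydroxylates aspartate and asparagine, fell (log2 fold change -1.54 ± 0.42, adjusted p = 0.0677), although an SDHB-KO sample lay slightly above the lower parental sample (19.9 CPM). HEATR4 overlaps the end of RIOX1 on the other strand.

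In the cell cycle, 2 of 42 replication genes (4.76%) were called, both higher, against 1.75% of all genes tested called higher. LIG1, the DNA ligase of replication, was at 48.6 and 39.8 CPM in parental, 203, 85.6 and 113 in SDHB-KO and 92.9, 82.1 and 52.4 in SDHB-KO SDHA-low (log2 fold change 1.18 ± 0.32, adjusted p = 0.0677). PRIM2, the large primase subunit, was seen in 1 read over both parental samples and in 43 reads over the 6 SDHB-null samples (adjusted p = 0.0944). Of 26 mitosis genes, 5 were called (19.2%, against 3.91% of all genes tested), 2 higher and 3 lower. The securin PTTG1 was at 416 and 419 CPM in parental, 1052, 699 and 915 in SDHB-KO and 597, 933 and 481 in SDHB-KO SDHA-low (log2 fold change 0.89 ± 0.24, adjusted p = 0.0584), and CKS1B, a cofactor of cyclin-dependent kinases named here to complete the count, had 0.66 (adjusted p = 0.0974). The proliferation marker MKI67 was at 116 and 67.7 CPM in parental, 32.8, 50.03 and 61.5 in SDHB-KO and 38.6, 52.98 and 49.03 in SDHB-KO SDHA-low (log2 fold change -0.94 ± 0.27, adjusted p = 0.0788), the kinetochore protein CENPF had -2.82 (adjusted p = 0.00816) and the cytokinesis protein ANLN had -1.99 (adjusted p = 0.0969). CENPF was at 76.4 and 21.2 CPM in parental, a pair far apart, and at 1.08 to 15.6 CPM in SDHB-null cells. ANLN had few reads, with 13 and 12 in parental and 1 to 8 in SDHB-null samples. The median of the mitosis list was 0.02, and -0.04 after the GC correction. None of 13 p53 targets and cell cycle inhibitors was called, and CDK4, measured with them, had 0.58 (adjusted p = 0.125), with a difference between the SDHB-null groups of -0.68 (adjusted p = 0.0987).

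Of 24 genes of the NRF2 and glutathione systems, 3 were called (12.5%, against 3.91% of all genes tested). The pentose phosphate enzyme TKT was at 256 and 256 CPM in parental, 757, 426 and 696 in SDHB-KO and 468, 663 and 329 in SDHB-KO SDHA-low (log2 fold change 1.11 ± 0.26, adjusted p = 0.0315). GPX4, the peroxidase that removes lipid peroxides, was at 479 and 549.6 CPM in parental, 209, 232 and 343 in SDHB-KO and 246, 498 and 285 in SDHB-KO SDHA-low (log2 fold change -0.77 ± 0.23, adjusted p = 0.0962), and 1 SDHB-KO SDHA-low sample reached the parental range. The cystine carrier SLC7A11 had -1.48 (adjusted p = 0.0754), and together with PSAT1, an enzyme of serine synthesis with -1.10 (adjusted p = 0.0708), it made up the 2 called of 23 genes (8.70%) in the list of the ATF4 stress response. Over the whole list the median was 0.23, with 0.25 in SDHB-KO and -0.08 in SDHB-KO SDHA-low, and it was 0.13 after the GC correction and 0.08 without parental replicate 2.

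Actin genes and other targets of serum response factor gave 4 calls of 29 (13.8%, against 3.91% of all genes tested). ACTG1, cytoplasmic gamma actin, was at 21913 and 22579 CPM in parental, 12371, 12927 and 11373 in SDHB-KO and 14968, 14820.0 and 16998 in SDHB-KO SDHA-low (log2 fold change -0.69 ± 0.16, adjusted p = 0.0311), with no overlap. CNN3, a calponin, had -1.31 (adjusted p = 0.064) and the AP-1 factor FOSL1 -0.67 (adjusted p = 0.0969), whereas TAGLN2, a transgelin, rose by 1.10 on the log2 scale (adjusted p = 0.0236). None of 29 matrix, adhesion and mesenchymal genes and none of 12 NF-kB and cytokine genes was called, with medians of -0.30 and 0.48. Without parental replicate 1 the first of these turned to 0.07. VIM, TIMP2, RELA and NFKBIA, their most abundant members, had adjusted p of 0.744, 0.442, 0.277 and 0.292. In the interferon and antigen presentation list 2 of 26 were called (7.69%), HLA-B and B2M, the light chain of class I molecules, at 127 and 78.3 CPM in parental and 42.4 to 73.6 in SDHB-null cells (log2 fold change -0.82 ± 0.24, adjusted p = 0.0896), with a list median of 0.06, and -0.02 after the GC correction.

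**Figure D3:**
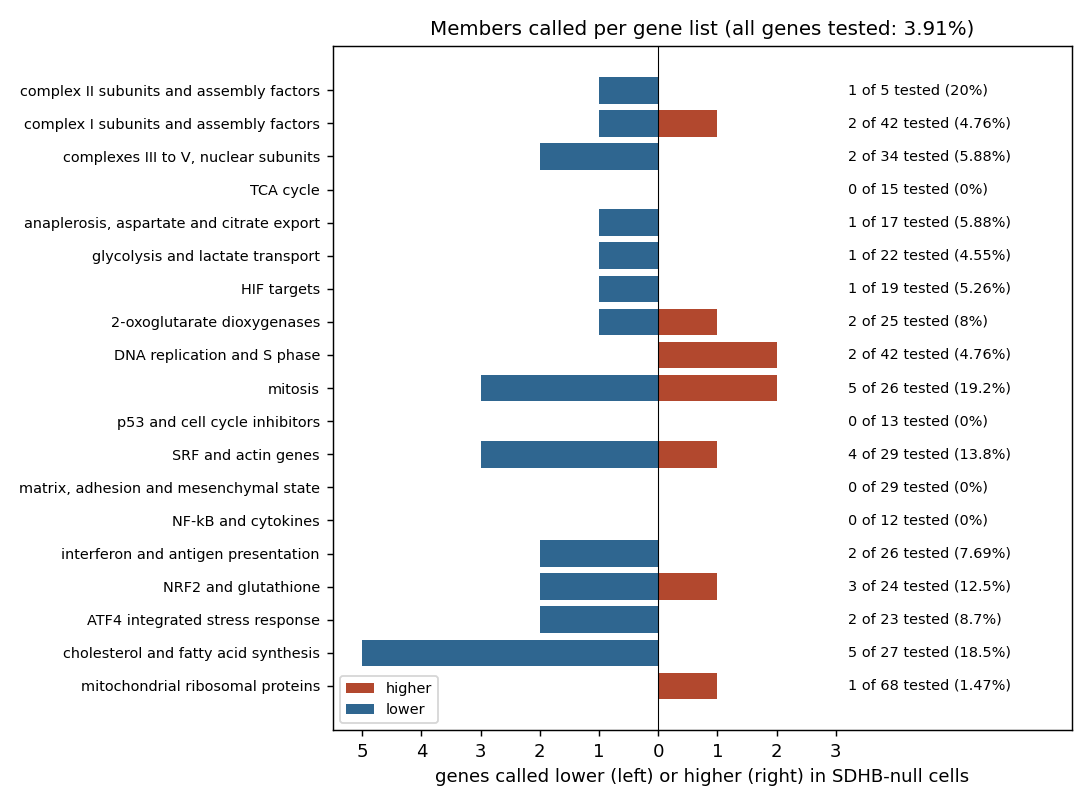
Number of called genes per list, lower to the left and higher to the right of 0 on the x axis, with the count, the genes tested and the share printed beside each list on the y axis. Cholesterol and fatty acid synthesis (5 of 27) and mitosis (5 of 26) have the most calls, against 3.91% of all genes tested, and 4 lists have none.

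GC content moved with the calls. The last 300 bases of the canonical transcript had a median GC content of 48.7% in the sustained higher genes and 37.3% in the sustained lower genes, against 43.3% over all genes tested. The median transcript length was 2008 bases in the higher and 3726.5 in the lower genes. Samples also differed in how level related to GC content, with a rank correlation from -0.21 in parental replicate 1 to 0.23 in SDHB-KO replicate 3, and 1 parental and 3 SDHB-null samples on either side of 0. Within the samples of negative trend the median change of the sustained genes was 0.87 for higher and -1.29 for lower genes, and within those of positive trend it was 1.14 and -1.08. The 12 most increased genes (median GC content 59.2%) had medians of 1.08 within the negative and 1.69 within the positive set. For the 12 most reduced genes (33.8%) these medians were -1.68 and -1.35. The sustained genes were chosen on these same samples, which favours the same direction in both sets. After correcting each sample's GC trend, 334 genes were called, 264 of them among the 295. With the sign of the trend as a term in the fit, an alternative added after the data were seen, 579 genes were called, including all 295. Without parental replicate 1 that fit called 108 genes, of which 63 were among the 295. In the sustained lower genes 63 of 160 had parental replicate 1 at over 1.5 times parental replicate 2, and 5 had the reverse. The part of GC content or of this library in the changes was not tested beyond these fits.

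The share of sustained genes varied between chromosomes. It was highest for higher genes on chromosome 19, with 23 of 595 tested (3.87%, against 1.75% of all genes called higher). For lower genes it was 5 of 73 (6.85%) on chromosome 13, 12 of 283 (4.24%) on chromosome 9 and 28 of 742 (3.77%) on chromosome 1, against 2.16% of all genes called lower. QTRT1 (chr19:10701430-10713437) and ATG4D (chr19:10543895-10553418) lie near each other on chromosome 19 and moved in opposite directions. RIOX1 (chr14:73490933-73493394) and ACOT2 (chr14:73567620-73575658) are also near each other and both rose. On the short arm of chromosome 1, in a stretch picked after the values were seen (chr1:84479259-120100779, GRCh38), 53 of 64 tested genes had a log2 fold change below 0 and 13 were called lower and none higher (20.3%, against 2.00% of the other genes). They included GNG5, DDAH1, SELENOF, LRRC8C, CNN3, TAF13, SORT1, GNAI3, GSTM4, CAPZA1, TRIM33 and NRAS. The median log2 fold change over the 64 was -0.63 in SDHB-KO and -0.55 in SDHB-KO SDHA-low cells, and -0.50 for both together, with and without the GC correction. It was -0.52 and -0.49 within the samples of negative and positive GC trend. Other genes whose transcript ends have 30 to 40% GC, limits set around the median of 35% in this stretch, had a median of -0.06 and 2.49% called lower. Among the 22 genes of the stretch with at least 20 CPM, 18 were below 0 and the median was -0.41. Low medians were not limited to this stretch when chromosomes were cut into equal bins with at least 20 genes tested. A bin of chromosome 15 (from 50000001, 20 genes, 1 called lower) had -0.52. The bin from 110000001 within the stretch (25 genes, 4 called lower) had -0.45. A bin of chromosome 14 (from 50000001, 23 genes, 3 called lower) had -0.29. SDHB itself lies elsewhere on the same chromosome (chr1:17018664-17054032), and of 44 tested genes within 5 Mb of it none was called, with a median of 0.04.

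**Figure D4:**
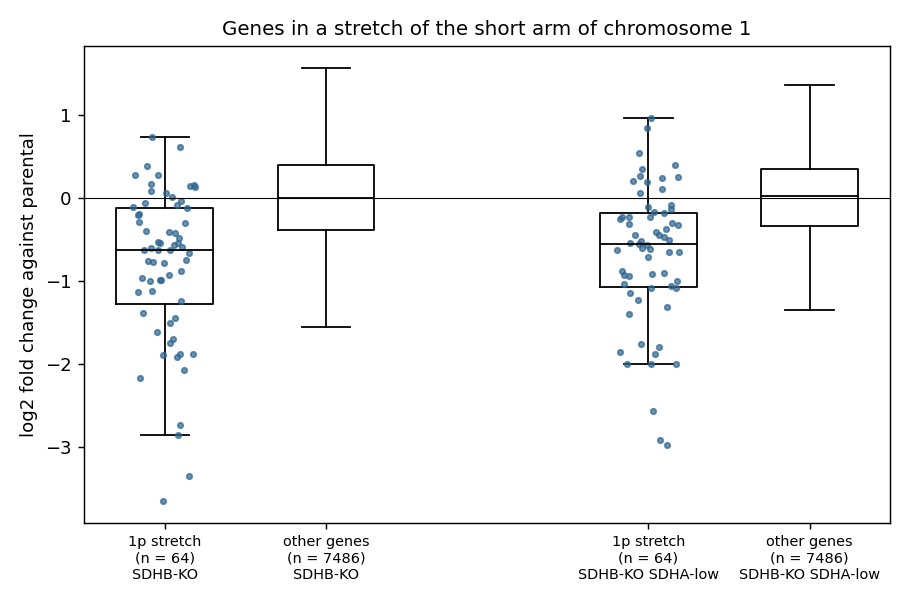
Log2 fold change against parental on the y axis for the 64 tested genes of the chromosome 1 stretch (points and box) and the 7486 other genes (box), in SDHB-KO and in SDHB-KO SDHA-low cells. Boxes give median and quartiles, and the stretch has medians of -0.63 and -0.55 while the other genes are centred near 0.

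The largest sustained changes belonged to genes with few reads, which the rule for named genes left out and which were picked here after their values were seen. Of the 292 genes, 73 had a mean under 20 CPM, and 59 of those were lower. HACL1, a lyase of peroxisomal alpha-oxidation, had no read in either parental sample and 53 reads over the 6 SDHB-null samples, in every one of them, which is at least 4.96-fold higher against a level of 3 counts over the parental pair (adjusted p = 0.0281). SMARCE1, a subunit of the BAF chromatin remodeller, had 1 read in parental and 56 in SDHB-null cells (adjusted p = 0.0659). In the other direction, the condensin subunit SMC4 had 59.00 and 26.6 CPM in parental, 2.74, 4.45 and 2.16 in SDHB-KO and 10.9, 7.46 and 13.4 in SDHB-KO SDHA-low (log2 fold change -2.88 ± 0.43, adjusted p = 0.00176). NRAS, the small GTPase, had 48.6 and 17.3 CPM in parental, 4.10, 4.45 and 1.08 in SDHB-KO and 4.83, 5.97 and 5.57 in SDHB-KO SDHA-low (log2 fold change -2.95 ± 0.49, adjusted p = 0.00588). In both the SDHB-null samples lay below the lower parental value, and parental replicate 1 was more than 2 times parental replicate 2. H2AC25, the gene called also without parental replicate 1, had 41.6 and 59.7 CPM in parental, 8.21, 8.89 and 1.08 in SDHB-KO and 8.45, 0.746 and 1.11 in SDHB-KO SDHA-low (log2 fold change -3.53 ± 0.52, adjusted p = 0.00176), with the parental pair closer together and well above all 6 SDHB-null samples.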

How the data were processed

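Lexogen QuantSeq 3' libraries of 8 samples were analysed. The authors deposited raw counts per gene, made after quality trimming (Trimmomatic), a filter against ribosomal and mitochondrial reads, and alignment and counting on GRCh38 with STAR 2.5.2b. Of the reads in the deposited files, 18.8% to 28.6% fell on no gene, were unmapped or multimapped, and stayed out of library sizes. Deposited normalized counts were not used. They are the same counts divided by 1 factor per sample, with SDHB-KO replicates 1 and 3 exchanged. Since each read is a single count, precision follows depth, and the floor of 3 counts covers counting error only.

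Groups followed the labels' modification. Genes with a mean normalized count (DESeq2 size factors) above 5 were tested in R 4.3.3 with the quasi-likelihood test of edgeR 4.0.16, TMM scaling, 3 groups in 1 fit and no covariate. The SDHB-null contrast was the mean of both SDHB-null groups minus parental, and adjusted p (Benjamini-Hochberg) below 0.1 made a call. Each SE was taken as the absolute log2 fold change over the square root of F. The edgeR fit with the main settings was tested on simulated data, and the alternative fits were not. GC content came from the last 300 bases of canonical transcripts in GENCODE 44 (GRCh38), and its correction was a lowess trend (span 0.3) per sample, entered as an offset. Of the genes tested, 11 had no name there.

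Named genes were the complex II genes, then the 12 highest and 12 lowest log2 fold changes among called genes of the same sign in both groups, with the smaller change at least 0.5 of the larger, no overlap between samples and a mean of at least 20 CPM. In each gene list up to 4 called members with the lowest p were added, and where fewer than 2 were called, those with the most reads. Genes of opposite sign, those that differed between the SDHB-null groups and those at the threshold were added after seeing the data. Some genes that entered the counts are not reported here by name. The members and lists were chosen with earlier results of these data known. Alternatives were DESeq2 1.42.0, its size factors, 2 other filters, an adjusted p of 0.05, the replicate number as a block, 1 SDHB-null group, GC corrections, other definitions of sustained genes and each sample left out.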

Additional observations from a re-analysis of the deposited data

Results flagged for a closer look

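Among the 82 genes selected for naming, a sample stood apart from the other 5 SDHB-null samples, by the gap to its neighbour relative to the range, in 4: PIEZO1 at 4.10 CPM in SDHB-KO replicate 1, PSAT1 at 12.3 CPM in SDHB-KO replicate 1, HNRNPH3 at 35.7 CPM in SDHB-KO SDHA-low replicate 3 and ATG4D at 167 CPM in SDHB-KO SDHA-low replicate 2. Chance alone marks about 1 group in 20 in this way.

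The effect against parental differed between the SDHB-null groups, by their direct comparison, for a further set, given as the log2 difference SDHB-KO SDHA-low minus SDHB-KO. SDHA had -3.46, TUBA4A -4.33 and TRBC2 -4.75. Among genes called higher, the difference was -0.94 for TAGLN2, -0.83 for VAMP8, -0.88 for RPS10, -0.86 for STYXL1, -0.94 for DUSP4, -0.79 for YBX3, -1.16 for PRKAG1, -1.36 for C19orf33 and -1.15 for PRMT1. Among genes called lower, it was 1.07 for SLC25A1, 0.66 for COLGALT1 and -1.09 for PYGB. CDK4, not called against parental, had -0.68.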

How the results depend on the processing

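Counts are given for SDHB-null against parental (295), sustained genes (292), SDHB-KO against parental (418), SDHB-KO SDHA-low against parental (69) and SDHB-KO SDHA-low against SDHB-KO (114), in that order. At an adjusted p below 0.05 they were 111, 110, 171, 13 and 64. Same-numbered samples did not deviate together (mean correlation -0.07 over 7 pairs, none above 0.1), which does not show that the samples are unpaired. Samples of different groups with the same sign of GC trend had a mean correlation of 0.11, and those with opposite signs -0.10. With the replicate number as a block the counts were 127, 126, 199, 12 and 59, and with the block after exchanging SDHB-KO numbers 1 and 3 they were 51, 50, 94, 8 and 49. With the 6 SDHB-null samples as 1 group the first 2 were 138 and 138. With no filter beyond 1 read, SDHB-KO SDHA-low against parental gave 152. Requiring the smaller change to be 0.75 of the larger left 157 sustained genes.

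Leaving out 1 sample gave 1 to 472, 1 to 468, 0 to 833, 4 to 172 and 39 to 362. The 0 came from SDHB-KO against parental without parental replicate 1, with 665 genes at an unadjusted p below 0.05. The highest counts came without SDHB-KO SDHA-low replicate 2. With the sign of the GC trend as a term, added after seeing the data as was the exchanged block, the counts were 579, 576, 680, 335 and 202. Adding that term without parental replicate 1 gave 108, 108, 224, 49 and 194, and without parental replicate 2 gave 42, 41, 85, 45 and 195.

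DESeq2 on all 15883 genes with a read, its size factors in edgeR, filterByExpr and the GC offset stayed within 1.5 times each count. The DESeq2 run, which changed test, scaling and filter together, called 160 higher and 84 lower against 132 and 163, and shared 189 of the 295. No named gene reversed direction where it was called in the main fit or in the alternative. Uncalled genes could cross 0 between settings, such as GAPDH (-0.32 to 0.27) and PGK1 (-0.22 to 0.18). Over named genes and settings, 406 calls were lost, 16 gained and 1115 kept their side of the threshold, and 65 of the losses came without parental replicate 1. The causes were not tested. No setting varied depth (773042 to 1427141 reads on genes), and small changes in genes near 3 counts were not detectable.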

Other observations

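Some gene families were looked at only after the called genes had been seen, and are given as counts, beside 2.16% of all genes tested called lower and 1.75% called higher. Of 7 tested chaperones of the HSP90 and HSP110 families, 4 were called lower in SDHB-null cells, HSP90AA1, HSP90B1, HSPH1 and HSPA4, and HYOU1 was called higher. HSP90AA1 was at 528 and 174 CPM in parental and 58.2 to 208 CPM in SDHB-null samples, so that the groups overlapped and parental replicate 1 stood well above replicate 2. Of 19 genes for heterogeneous nuclear ribonucleoproteins, 4 were called lower (HNRNPA3, HNRNPA0, HNRNPA2B1 and HNRNPH3) and none higher, with a median of -0.16. Of 83 cytosolic ribosomal protein genes, 4 were higher (RPS10, RPL39, RPL27A and RPLP0) and 2 lower, RPL37 among them, with a median of 0.03. Reads of these families can be shared with processed pseudogenes.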
